A study of Rattus norvegicus with 4 samples.

Results

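The nuclear-encoded subunits of oxidative phosphorylation were examined in the hypothalamus of adult male Wistar rats. Members were taken by name: probes whose symbol begins with Nduf, Uqcr, Atp5 or Cox followed by 4 to 8, or is Sdha, Sdhb, Sdhc, Sdhd, Cyc1 or Cycs. This gave 68 of the 21397 genes on the Illumina rat bead array, read by 69 of its 22523 probes. The 4 samples of total RNA came from isolated hypothalami at 4 months of age: FR30 offspring, which were undernourished before birth, on a high-fat (HF) diet; FR30 offspring on standard diet; control offspring on HF diet; and control offspring on standard diet. Each group was represented by 1 sample, and the sources used here do not say whether that sample was 1 animal or a pool, so differences between groups had no replicate check. Of 18 hypothalamic marker genes, 17 were detected in every sample, among them Agrp, Pomc, Pmch, Hcrt, Avp and Oxt, and Sim1 was not detected.

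Oxidative phosphorylation takes place in the inner mitochondrial membrane. Complex I (NADH dehydrogenase) and complex II (succinate dehydrogenase) pass electrons to ubiquinone, complex III passes them to cytochrome c, and complex IV (cytochrome c oxidase) passes them to oxygen. The proton gradient that complexes I, III and IV build drives complex V, the ATP synthase. Neurons depend heavily on this pathway for the ATP that ion pumping consumes. Most subunits are encoded in the nucleus, and a core set of complexes I, III, IV and V is encoded in mitochondrial DNA. No probe carried a symbol of the mitochondrially encoded subunits, which were not analysed here.

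The promoter windows of the members are shown first for the genes with the largest differences in the 4 comparisons below. RefSeq windows, from 250 bases before to 50 bases after the start of the gene in build GRCr8, were found for 59 of the 68 genes, 55 of them genes of structural subunits. The 10-base string of the nuclear respiratory factor NRF1 (GCGC, A, any base, GCGC) was found on either strand in 14 of the 55 windows (25.5%), against 4.71% of all 27457 windows of that length. The letters AAGATGGCG, of YY1, were found in 6 (10.9%), against 1.93% of all windows, TCAAGGTCA, of the oestrogen-related receptors, in 2 (3.64%), against 0.412%, and ACCGGAAGT, of the GABP (NRF2) proteins, in 1 (1.82%), against 1.28%. At least 1 of these strings stood in 20 of the 55 windows. The subunit windows were also richer in G and C, with a median of 57.7% against 52.3% over all windows. Capitals mark the matched letters in the windows below. Ndufs6 held an NRF1 string, read on the opposite strand, and a YY1 string, Ndufv3 an NRF1 string, and Cox6a2 none of the 4 strings.
Ndufs6, GRCr8 chr1:31797150-31797449, plus strand: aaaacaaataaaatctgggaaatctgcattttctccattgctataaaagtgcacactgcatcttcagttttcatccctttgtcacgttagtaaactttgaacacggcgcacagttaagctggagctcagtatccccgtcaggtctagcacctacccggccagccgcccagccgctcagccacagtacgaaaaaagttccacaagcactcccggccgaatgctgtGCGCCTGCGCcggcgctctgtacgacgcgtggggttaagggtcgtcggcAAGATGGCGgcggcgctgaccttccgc
Ndufv3, GRCr8 chr20:9613536-9613835, plus strand: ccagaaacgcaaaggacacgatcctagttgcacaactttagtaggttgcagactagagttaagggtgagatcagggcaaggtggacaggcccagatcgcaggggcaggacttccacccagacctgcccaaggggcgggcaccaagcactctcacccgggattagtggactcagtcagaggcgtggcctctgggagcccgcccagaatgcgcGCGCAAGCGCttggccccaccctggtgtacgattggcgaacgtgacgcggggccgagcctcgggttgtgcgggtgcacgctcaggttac
Cox6a2, GRCr8 chr1:192219667-192219966, minus strand: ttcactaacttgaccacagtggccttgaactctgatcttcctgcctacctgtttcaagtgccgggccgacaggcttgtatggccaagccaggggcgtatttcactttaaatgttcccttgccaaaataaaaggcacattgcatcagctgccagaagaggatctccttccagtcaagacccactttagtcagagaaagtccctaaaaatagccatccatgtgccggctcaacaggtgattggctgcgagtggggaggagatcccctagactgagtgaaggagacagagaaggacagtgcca

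Detection was nearly complete. All 4 samples had a detected signal, at a detection p under 0.01, for 62 of the 69 probes, each of a different gene, while 47.2% of all genes on the array were detected in every sample. The members therefore had few dim probes: the mean normalized signal of the detected members had a median of 5052, between 211 and 28701, against 596 over all detected genes. A probe's signal depends on its sequence as well as on its transcript, so these signals place probes above the background of the array and do not rank the genes. Complex I had 29 of 29 subunit genes detected, complex II 4 of 4, complex III 5 of 5, complex IV 7 of 11, complex V 11 of 12, and cytochrome c its single gene Cycs. The rule also took 6 genes that are not subunits: the complex I assembly factor Ndufaf1, the respirasome factor Cox7a2l, Dmac2 and Dmac2l (Atp5sl and Atp5s in the file), Emc8 (Cox4nb in the file), a subunit of the endoplasmic reticulum membrane complex, and the pseudogene Cox6c-ps1 (Cox6c1 in the file), of which all but the last were detected.

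**Figure D1:**
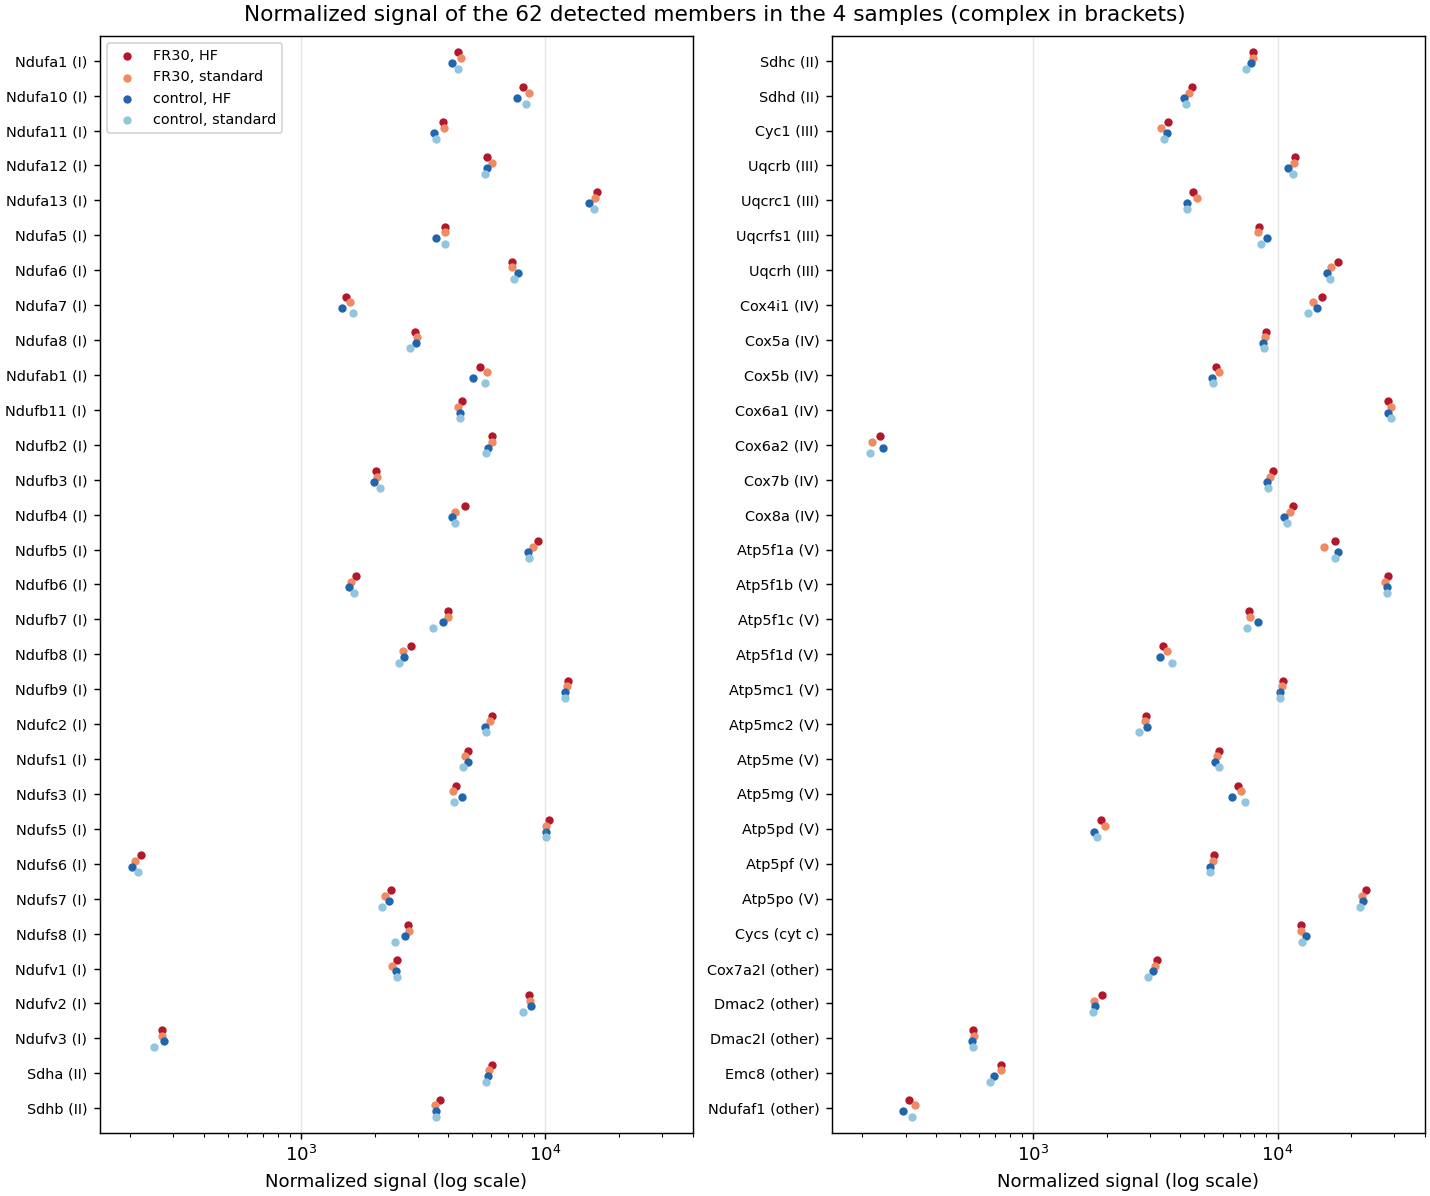
Normalized signal (horizontal log axis) of the 62 detected members, 1 row a gene and 1 point for each of the 4 samples, with the complex in brackets and "other" for members that are not subunits. The 4 points of a gene lie close together in nearly every row, and the widest row relative to its signal, that of Ndufb7, spans 3450 to 3999.

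The 7 probes without a detected signal in any sample were mostly of complex IV. Cox8b (Cox8h in the file), the heart and muscle isoform in rodents, had 168 and 163 in FR30 offspring (HF and standard diet) and 162 and 169 in control offspring (HF and standard diet). Cox8c, a testis isoform in humans, had 132 and 135 in FR30 offspring and 141 and 129 in control offspring. The ubiquitous isoform Cox8a was detected in every sample. The probes of Cox6b1 (Cox6b in the file), Cox6c and Cox6c-ps1, the probe of Atp5mc3 (Atp5g3 in the file) and one of the 2 Ndufb4 probes were also below the detection threshold. The remaining Ndufb4 probe was detected in every sample, and so was a probe outside the rule that RefSeq names Cox6b1, at 6769 in FR30 offspring on HF diet.

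Differences between samples are log2 differences of background-corrected, quantile-normalized values, and ± values beside a normalized signal are the deposited SD, whose basis is not stated. With 1 sample a group, no pairwise difference was tested: a difference of 1.5-fold (0.58) or 1.2-fold (0.26), or a pair of signals whose ranges of ± 2 deposited SDs do not overlap, is given as a size only. In bulk tissue, fewer cells of a type and less RNA per cell cannot be told apart. None of the 62 detected members reached 1.5-fold in any of the 4 comparisons. Over all genes detected in both samples, 0.802% did so for FR30 against control on HF diet, 0.776% on standard diet, 0.324% for HF against standard diet in FR30 offspring and 0.587% in control offspring, so that a count of 0 among 62 members is near that background. The SD of the differences over members was 0.074, 0.072, 0.067 and 0.11 in the same order, against 0.17, 0.17, 0.14 and 0.16 over genes detected in all samples, which include many dimmer probes. In all 4 comparisons, 30 of the 62 members (48.4%) stayed within 0.1, as did 27.0% of all detected genes.

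**Figure D2:**
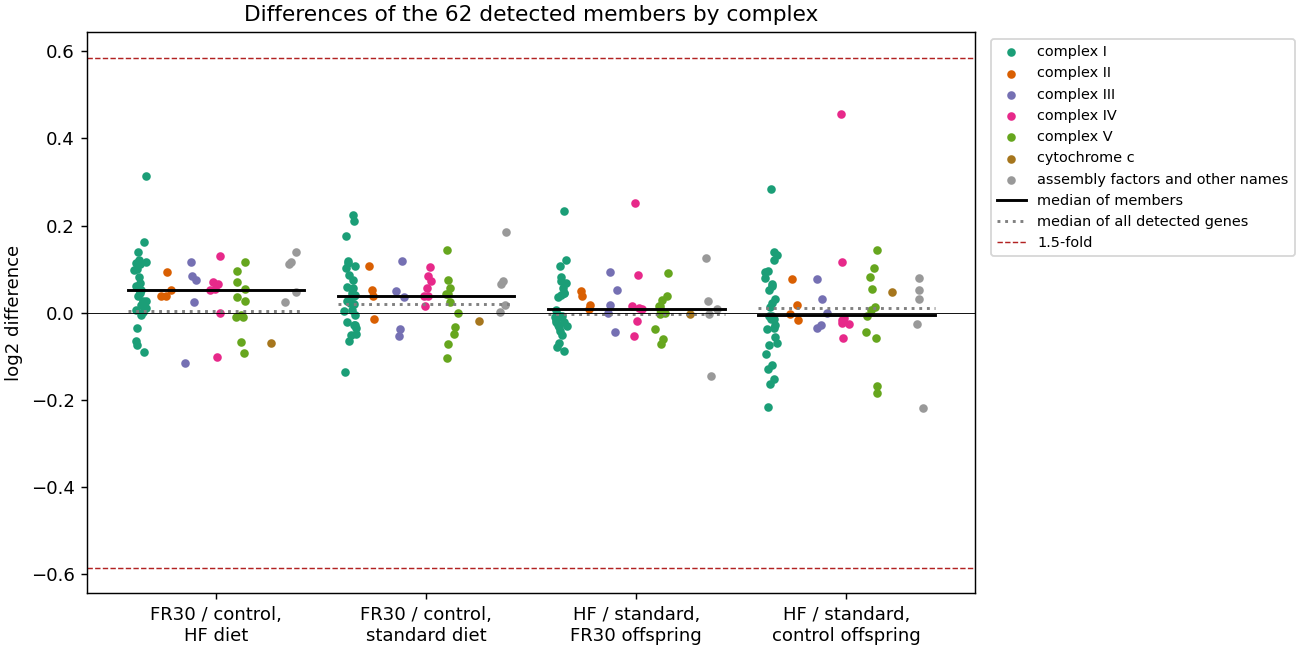
log2 difference (vertical axis) of each detected member in the 4 comparisons, coloured by complex, with the median of the members as a solid line, that of all detected genes as a dotted line and 1.5-fold as dashed lines. All members lie inside 1.5-fold; the highest point is Cox6a2 for HF against standard diet in control offspring, at 0.46.

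On HF diet the members stood slightly higher in FR30 than in control offspring. The difference was above 0 for 48 members (77.4%), below 0 for 13 and at 0 for Cox6a1, with a median of 0.052, a shift of a few percent. Of all genes, 51.4% were above 0, with a median of 0.0043. Members above 0 numbered 24 of 29 in complex I, 4 of 4 in complex II, 4 of 5 in complex III, 5 of 7 in complex IV and 6 of 11 in complex V, and the median was 0.052 in complex I, 0.046 in complex II, 0.074 in complex III, 0.056 in complex IV and 0.026 in complex V. Cycs, the electron carrier between complexes III and IV, was lower, at -0.07. The 5 detected members that are not subunits were all above 0, with a median of 0.11. Of the 57 detected subunits alone, 43 (75.4%) were above 0, with a median of 0.051. Quantile normalization gives the same value to probes of the same rank, which is why a few bright members have a difference of exactly 0.

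Ndufs6, a zinc-binding accessory subunit of the matrix arm of complex I, had the highest difference on HF diet, 0.31, and was the only member past 1.2-fold, as 9.43% of all genes were. It was 0.11 with the authors' normalized signals and 0.22 with an offset of 50, short of 1.2-fold both times. Its normalized signals were 220 ± 1.31 and 208 ± 10.7 in FR30 offspring (HF and standard diet) and 203 ± 5.61 and 214 ± 6.21 in control offspring (HF and standard diet). The HF samples held both its highest and its lowest value, and all 4 signals lay close to the detection threshold. Ndufb4, an accessory subunit of the membrane arm, followed at 0.16, with 4680 ± 516 in FR30 and 4136 ± 186 in control offspring on HF diet, a gap close to the larger deposited SD. The complex I assembly factor Ndufaf1 was at 0.14, with 311 ± 12.2 against 293 ± 4.21. The lowest differences belonged to Uqcrfs1, the Rieske iron-sulphur protein of complex III (-0.11, 8387 ± 175 against 9016 ± 230), Cox6a2, the heart and muscle isoform of a complex IV subunit (-0.10, 236 ± 4.49 against 243 ± 3.75), and Atp5f1c (Atp5c1 in the file), the gamma subunit that turns inside the ATP synthase (-0.09, 7671 ± 81.4 against 8288 ± 358).

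The ranges of ± 2 deposited SDs did not overlap for 8 of the 62 members on HF diet and for 12.4% of all genes, so the share of members was near the background. Of these 8 members 7 were higher in FR30 offspring, as were 47.5% of the genes without overlap over the whole array. The same differences put 77.4% of all 62 members above 0, so this count is not a separate result. Among the 8 members was Uqcrh, the hinge protein of complex III, at 17697 ± 162 in FR30 and 15978 ± 531 in control offspring. Cox8a, also among them, had 11532 ± 284 against 10630 ± 117. Both genes were named by rule, and both were picked from the 8 with their values known. Uqcrh was highest in FR30 offspring on HF diet among the 4 samples, with 16540 ± 617 in FR30 and 16330 ± 40.5 in control offspring on standard diet. Markers of other cell types also differed in this comparison, some lists mostly higher in FR30 offspring and others mostly lower. Of 11 detected oligodendrocyte and myelin markers 9 were higher in FR30 offspring, with a median of 0.15 and summed signals of 65655 against 63103; 7 of 9 thalamus markers were higher, with a median of 0.15 and sums of 19745 against 18835; and of 12 neuron markers 8 were higher, with a median of 0.047 and sums of 114043 against 113796. All 4 detected red blood cell markers were higher, with sums of 48510 against 46115. Of 7 anterior pituitary markers, Tshb and Pomc (also a hypothalamus marker) were detected in both samples and were higher, with a median of 0.46 and sums of 8826 against 6355. Of 8 choroid plexus markers 3 were detected in both samples and were higher, with sums of 727 against 653, while Ttr had 1251 in FR30 offspring and, undetected, 183 in control offspring, and Folr1, Kcne2, Kl and Slc4a5 were detected in no sample. Of the 17 detected hypothalamus markers 11 were lower in FR30 offspring, with a median of -0.08 and sums of 94694 against 96935. Microglia markers were lower in 6 of 8 cases, with a median of -0.06. Endothelium markers were lower in 3 of 4 and astrocyte markers in 4 of 7, with medians of -0.02 and -0.0072. The part of the markers in the result was not tested.

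On standard diet the members were also above 0 more often than below, but this depended on the normalization. The difference was above 0 for 44 members (71.0%) and below 0 for 17, with a median of 0.039, against 56.2% of all genes above 0 and a median of 0.019. When samples were scaled to equal medians in place of quantile normalization, 50% of members were above 0 with a median of 0.0022, against 51.9% of all genes. The subunits of complex IV were above 0 in 7 of 7 cases, between 0.016 and 0.10, but in 3 of 7 with equal medians. Complex I was above 0 in 20 of 29, complex II in 3 of 4, complex III in 3 of 5 and complex V in 6 of 11. The 5 detected members that are not subunits were all above 0, with a median of 0.066. Of the 57 detected subunits alone, 39 (68.4%) were above 0. Ndufv3 (Ndufv3l in the file), a small subunit of the NADH-binding part of complex I, had the highest difference, 0.22. Its signals were 269 ± 9.59 and 269 ± 7.02 in FR30 offspring (HF and standard diet) and 275 ± 1.08 and 249 ± 1.66 in control offspring (HF and standard diet). The last of these stood apart from the other 3, which were close to each other.

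Ndufb7, an accessory subunit at the outer face of the complex I membrane arm, followed at 0.21, with 3999 ± 223 in FR30 and 3450 ± 53.7 in control offspring on standard diet, and with 3981 ± 114 and 3798 ± 124 on HF diet. Again control offspring on standard diet had the lowest signal of the 4 samples. That sample held the lowest value for 35.5% of members and 34.1% of all genes. Emc8 was at 0.19, with 735 ± 13.5 in FR30 and 665 ± 2.66 in control offspring on standard diet, and 740 ± 11.4 and 691 ± 35.1 on HF diet; it is not a subunit of the respiratory chain. The lowest values were those of Ndufs6 (-0.14), of Atp5f1a (Atp5a1 in the file), the alpha subunit of the ATP synthase (-0.10), and of its delta subunit gene Atp5f1d (Atp5d in the file, -0.07). Atp5f1a had 17257 ± 567 and 15527 ± 205 in FR30 offspring (HF and standard diet) and 17643 ± 574 and 17133 ± 220 in control offspring, so that FR30 offspring on standard diet stood below the other 3 samples. Its partner Atp5f1b (Atp5b in the file), the catalytic beta subunit, had 28223 ± 1520 and 27618 ± 661 in FR30 offspring and 28028 ± 968 and 28110 ± 886 in control offspring, within the deposited SDs of each other. No member passed 1.2-fold, against 8.87% of all genes, and the ranges of ± 2 deposited SDs did not overlap for 4, Ndufv3, Emc8, Ndufa12 and Atp5f1a, against 11.6% of all genes. Of the hypothalamus markers 11 of 17 were lower in FR30 offspring on this diet, with a median of -0.14 and sums of 91841 against 97450, and of the oligodendrocyte markers 7 of 11 were higher, with a median of 0.06 and sums of 62883 against 63151. All 4 detected endothelium markers were higher, with sums of 4307 against 3910, and 6 of 7 astrocyte markers, with sums of 85227 against 81925. Of 4 detected anterior pituitary markers 2 were higher and 2 lower, with sums of 7252 against 6457, and Prl had 313 against 759. Of 2 detected choroid plexus markers Otx2 was higher and Ttr lower, at 209 against 523. Thalamus markers were lower in 5 of 9 cases (median -0.07, sums of 21914 against 21050) and microglia markers in 5 of 8 (median -0.02). All 3 detected red blood cell markers were higher, with sums of 31951 against 29361. The part of these markers in the result was not tested.

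The prenatal comparisons on HF and on standard diet share no sample. On both diets together, 36 of 62 members (58.1%) were above 0 each time, 5 were below 0 each time, and 34.1% of all genes were above 0 each time. With equal medians these shares were 45.2% of members and 33.2% of all genes. An additive limma fit of prenatal group and diet over the 10099 genes detected in all samples, with the interaction as its 1 residual degree of freedom and Benjamini-Hochberg adjustment, called no member for the prenatal difference and no member for the diet difference, with 0.0099% and 0.0% of all genes called. At an unadjusted limma p under 0.05 the fit held 0 members for the prenatal difference, where 12.7% of all genes lay, and 2 for the diet difference, Cox6a2 and Ndufaf1, where 7.12% did. The lowest adjusted p of a member was 0.40 for prenatal group (Emc8, 0.15 ± 0.06 SE, higher in FR30 offspring on both diets) and 0.60 for diet (Cox6a2, 0.35 ± 0.07 SE, higher on HF diet in both kinds of offspring). In that fit 50 of 62 members had a prenatal difference above 0, against 55.4% of all genes.

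**Figure D3:**
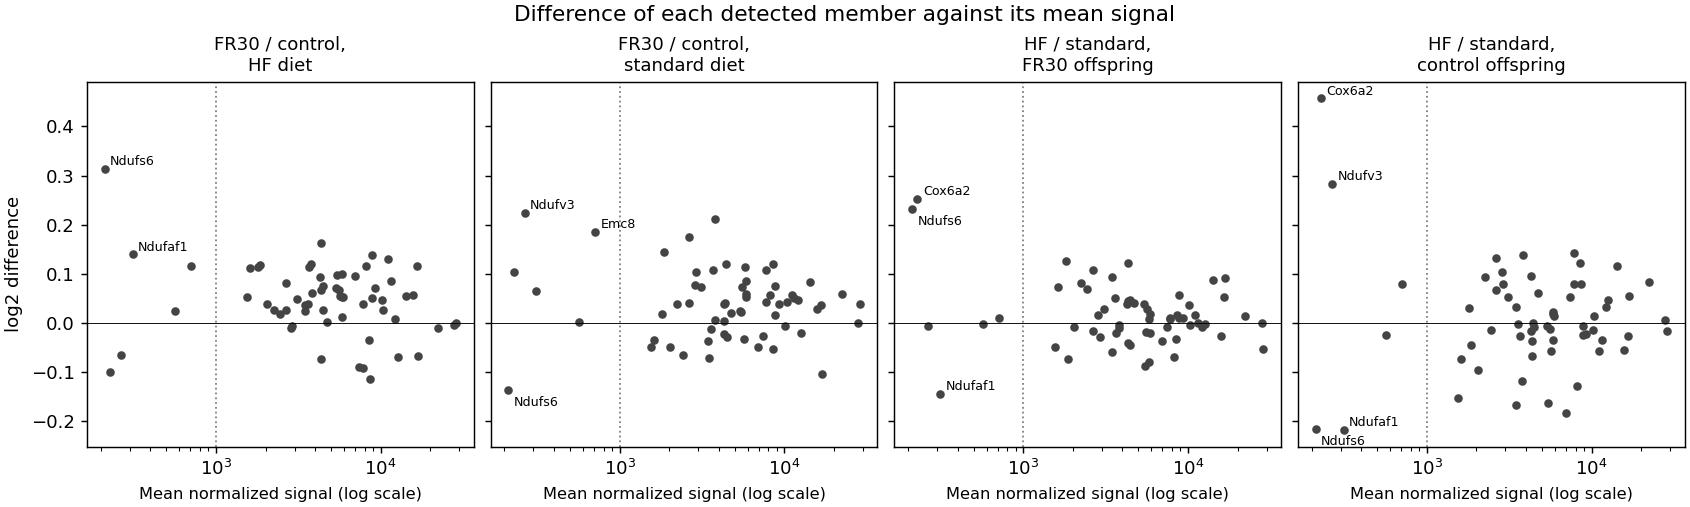
log2 difference (vertical axis) of each detected member against its mean normalized signal over the 4 samples (horizontal log axis), 1 panel a comparison, with a dotted line at a signal of 1000. The labelled members lie left of the line, and right of it the members spread between -0.18 and 0.21.

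In each comparison the member with the widest log2 difference after background correction had a dim probe. The lowest value for FR30 against control on HF diet was that of a brighter member, Uqcrfs1. Of the 62 detected members 56 had a mean signal over 1000, a value chosen after the data were seen, and their differences lay between -0.11 and 0.16 for FR30 against control on HF diet, between -0.10 and 0.21 on standard diet, between -0.09 and 0.12 for HF against standard diet in FR30 offspring and between -0.18 and 0.14 in control offspring. The other 6 were Cox6a2, Ndufs6, Ndufv3, Ndufaf1, Dmac2l and Emc8, and they spanned -0.10 to 0.31, -0.14 to 0.22, -0.14 to 0.25 and -0.22 to 0.46 in the same order. Background correction raises the log2 difference of a dim probe relative to its plain signal ratio.

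Between HF and standard diet in FR30 offspring, the members had no common direction under quantile normalization. The difference was above 0 for 33 (53.2%) and below 0 for 27, with a median of 0.0085, against 48.6% of all genes above 0 and a median of -0.0024. With equal medians 72.6% of members were above 0, with a median of 0.027, and 51.7% of all genes. Complex I had 12 of 29 members above 0, complex II 4 of 4, complex III 3 of 5, complex IV 5 of 7 and complex V 6 of 11. Cox6a2 was highest at 0.25, with 236 ± 4.49 on HF and 219 ± 5.28 on standard diet, followed by Ndufs6 at 0.23 and Dmac2 at 0.12, an assembly factor of complex I known from human cells, with 1907 ± 44.8 against 1776 ± 65.6. The lowest were Ndufaf1 at -0.14, Ndufab1, the mitochondrial acyl carrier protein that is also part of complex I, at -0.09 (5390 ± 96.3 against 5754 ± 115), and Ndufa12 at -0.08 (5776 ± 236 against 6041 ± 39.5). No member passed 1.2-fold, against 4.53% of all genes. The ranges of ± 2 deposited SDs did not overlap for Cyc1, the cytochrome c1 of complex III, and for Atp5f1a, against 6.28% of all genes. Cyc1, named after its value was seen, had 3575 ± 27.2 on HF and 3333 ± 40.0 on standard diet. Red blood cell markers stood higher with the HF diet in FR30 offspring (4 of 4 detected, median 0.68), and their signals summed to 48510 against 32164. Both choroid plexus markers detected in the FR30 samples were higher, with sums of 1575 against 499. Thalamus markers were lower in 7 of 9 cases (median -0.12, sums of 19745 against 21914), oligodendrocyte markers higher in 9 of 11 (median 0.044, sums of 65655 against 62883) and neuron markers lower in 8 of 12 (median -0.05, sums of 114043 against 117518). Of 3 detected anterior pituitary markers 2 were higher, with sums of 9067 against 7061. Their part in the members' differences was not tested.

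In control offspring the members were spread more widely around 0 on HF against standard diet, 29 above (46.8%) and 32 below, with a median of -0.0045, against 53.8% of all genes above 0 and a median of 0.011. With equal medians 29.0% of members were above 0, with a median of -0.052, and 47.8% of all genes. Members above 0 were 13 of 29 in complex I, 2 of 4 in complex II, 2 of 5 in complex III, 2 of 7 in complex IV and 6 of 11 in complex V. Cox6a2 and Ndufv3 were the members past 1.2-fold, at 0.46 and 0.28, where 7.99% of all genes passed. With the authors' normalized signals they were at 0.19 and 0.14 and no member passed 1.2-fold, and with an offset of 50 Ndufv3 was at 0.23 and Cox6a2 alone passed. Cox6a2 had 243 ± 3.75 on HF and 214 ± 10.3 on standard diet in control offspring, and both HF samples were above both standard samples. Its ubiquitous counterpart Cox6a1 had 28312 ± 1460 and 29225 ± 797 in FR30 offspring (HF and standard diet) and 28251 ± 759 and 29017 ± 730 in control offspring, and its diet differences were -0.05 and -0.02 in FR30 and control offspring. Atp5f1c followed at 0.14, with 8288 ± 358 against 7485 ± 296.

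The lowest diet differences in control offspring were those of Ndufaf1 (-0.22, 293 ± 4.21 against 319 ± 8.94), Ndufs6 (-0.22, 203 ± 5.61 against 214 ± 6.21) and Atp5mg (Atp5l in the file), the g subunit of the ATP synthase membrane part (-0.18, 6492 ± 35.5 against 7346 ± 92.4). In FR30 offspring Atp5mg had 6913 ± 318 on HF and 7099 ± 198 on standard diet, so control offspring on HF diet had the lowest of its 4 signals. The ranges of ± 2 deposited SDs did not overlap for 5 members, against 11% of all genes: Cox6a2, Ndufv3, Ndufb3, Ndufab1 and Atp5mg. Of 9 thalamus markers 8 were lower on the HF diet, their median was -0.39 and their signals summed to 18835 against 21050. All 3 detected red blood cell markers were higher, with a median of 0.55 and sums of 45910 against 29361. Tshb and Pomc, the anterior pituitary markers detected in both samples, were higher on HF diet, with sums of 6355 against 5484. Other pituitary markers went the other way: Prl had 759 on standard and an undetected 159 on HF diet, and Lhb 213 and an undetected 161. The choroid plexus marker Ttr had 523 on standard and an undetected 183 on HF diet. Astrocyte markers were higher in 6 of 7 cases, with sums of 84746 against 81925, and microglia markers in 6 of 8, with sums of 7115 against 6811. The part of these markers in the members' differences was not tested.

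**Figure D4:**
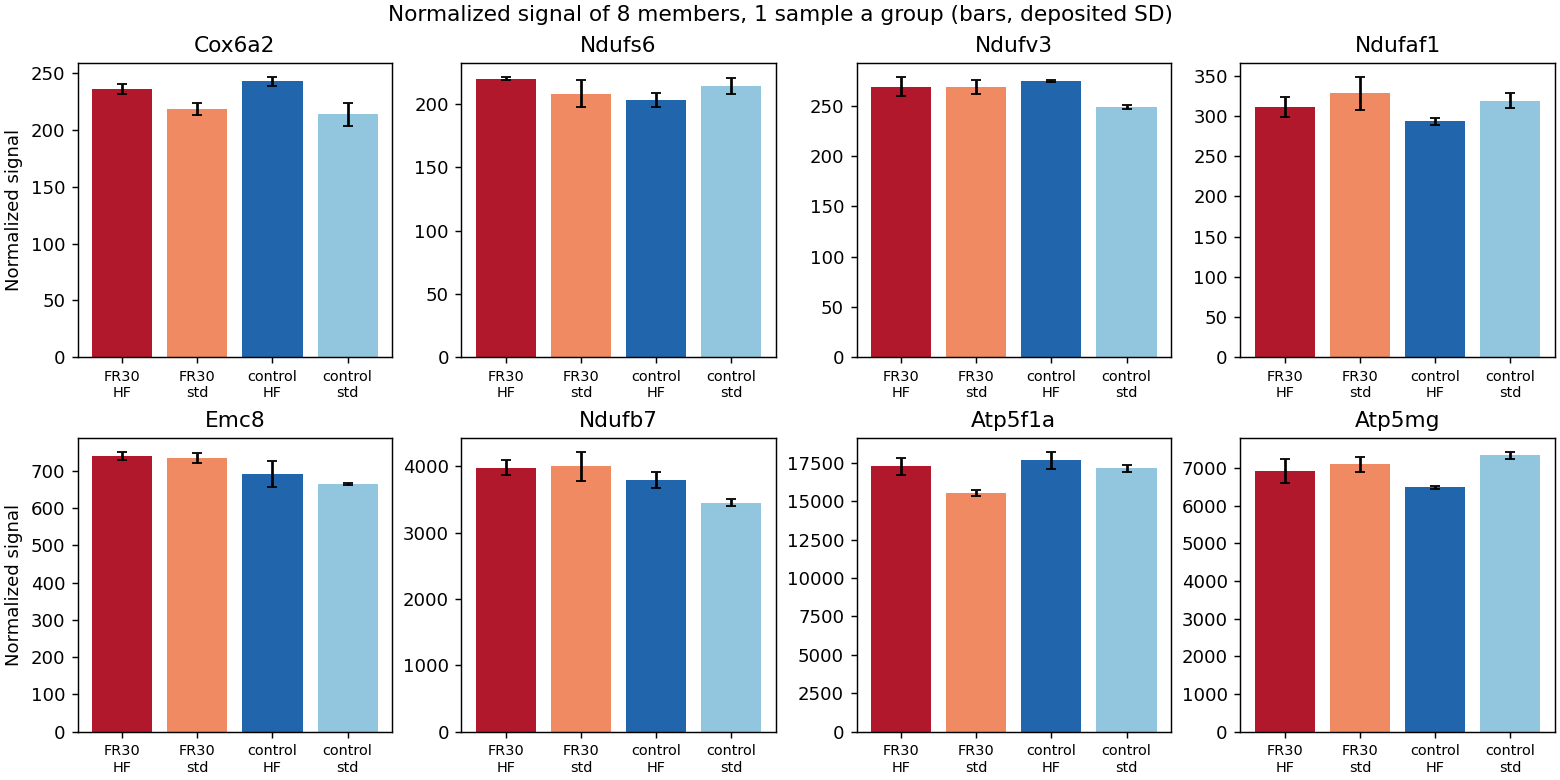
Normalized signal (vertical axis, from 0) of 8 members in the 4 samples, 1 bar a sample, with the deposited SD as error bars. In Ndufv3, Ndufb7 and Emc8 the sample of control offspring on standard diet is lowest, in Atp5f1a that of FR30 offspring on standard diet, and in Atp5mg that of control offspring on HF diet.

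The diet difference of FR30 minus that of control offspring was above 0 for 34 of 62 members, with a median of 0.025, against 46.9% of all genes and a median of -0.011. None differed by 1.5-fold, as 1.24% of all genes did. Ndufs6 had the highest value, 0.45, and Ndufv3 the lowest, -0.29. Across the 4 samples, the highest value of a member lay in FR30 offspring on HF diet for 26 of 62 (41.9%), in FR30 offspring on standard diet for 19, in control offspring on HF diet for 12 and in control offspring on standard diet for 5 (8.06%). Over all genes these samples held the highest value in 28.0%, 23.4%, 25.3% and 23.3% of cases. The lowest value lay in control offspring on HF diet for 29 members (46.8%, against 23.5% of all genes) and in FR30 offspring on HF diet for 4 (6.45%, against 24.1%). It lay in control offspring on standard diet for 22 (35.5%, against 34.1%), near the share over all genes, and in FR30 offspring on standard diet for 7 (11.3%, against 18.2%).

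Among the tissue isoforms of complex IV and the ATP synthase, Cox6a2 was the one past 1.2-fold. Cox4i1, the ubiquitous isoform of a regulatory subunit of complex IV, had 15209 ± 290 and 13937 ± 507 in FR30 offspring (HF and standard diet) and 14499 ± 724 and 13342 ± 324 in control offspring, and was higher on HF diet by 0.09 in FR30 and 0.12 in control offspring. Cox8a lay between -0.06 and 0.13, and Cox7a2l, which links complexes III and IV, between 0.028 and 0.07 in the 4 comparisons. Atp5mc1 and Atp5mc2 (Atp5g1 and Atp5g2 in the file), which encode the same mature c subunit of the proton-driven ring, lay between -0.0040 and 0.043 and between -0.01 and 0.10. Cycs had 12498 ± 109 and 12458 ± 318 in FR30 offspring and 13053 ± 623 and 12630 ± 407 in control offspring, and its differences lay between -0.07 and 0.047.

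Among the core subunits of complex I, which carry the NADH site and the iron-sulphur chain, the matrix-arm genes Ndufs1, Ndufs3, Ndufs7, Ndufs8, Ndufv1 and Ndufv2 were on the array with detected probes. Ndufs8, which binds iron-sulphur clusters near the quinone site, had 2726 ± 142 and 2771 ± 135 in FR30 offspring (HF and standard diet) and 2658 ± 103 and 2427 ± 95.5 in control offspring. Ndufv2 had 8546 ± 355 and 8661 ± 526 in FR30 offspring and 8721 ± 117 and 8119 ± 352 in control offspring. In both genes, described with their values known, control offspring on standard diet had the lowest signal, and the differences on standard diet were 0.18 and 0.12. That sample held the lowest value for 35.5% of members and 34.1% of all genes. Ndufs1, the largest subunit, had 4823 ± 131 and 4676 ± 50.4 in FR30 offspring and 4808 ± 103 and 4585 ± 90.0 in control offspring, and Ndufs3 4304 ± 65.4 and 4178 ± 113 against 4551 ± 130 and 4229 ± 86.7. Ndufs1, Ndufs3 and Ndufs7 were above 0 on HF against standard diet in both kinds of offspring, at 0.041, 0.044 and 0.081 in FR30 and 0.061, 0.096 and 0.093 in control offspring, each with overlapping ranges of ± 2 deposited SDs. The other matrix-arm genes listed had opposite signs in FR30 and control offspring. Ndufs8 was at -0.017 and 0.13, Ndufv2 at -0.033 and 0.12 and Ndufv1 at 0.068 and -0.014. Ndufv1, which binds NADH, lay between -0.07 and 0.07 in the 4 comparisons. The accessory subunit with the brightest probe, Ndufa13, also known as GRIM-19, had 16273 ± 422 and 15947 ± 601 in FR30 offspring and 15118 ± 432 and 15803 ± 559 in control offspring. Ndufa10, another accessory subunit, was highest in FR30 offspring on standard diet and lowest in control offspring on HF diet, with 8121 ± 218 and 8595 ± 102 in FR30 offspring and 7665 ± 202 and 8323 ± 273 in control offspring.

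Complex II, which is also an enzyme of the citric acid cycle, was read through 4 genes. Among complexes with several members its differences had the narrowest range, except for FR30 against control on standard diet. There they ran from -0.014 to 0.11, and those of complex IV from 0.016 to 0.10 over 7 genes. A range over fewer genes tends to be narrower. Sdha, the flavoprotein of complex II, had 6029 ± 266 and 5899 ± 179 in FR30 offspring (HF and standard diet) and 5827 ± 240 and 5699 ± 337 in control offspring. Sdhb, its iron-sulphur protein, had 3698 ± 176 and 3539 ± 90.5 in FR30 offspring and 3570 ± 167 and 3580 ± 222 in control offspring. All ranges of ± 2 deposited SDs overlapped for both genes. The membrane anchor Sdhc had 7932 ± 267 and 7944 ± 49.2 in FR30 offspring and 7784 ± 215 and 7432 ± 214 in control offspring. The other anchor, Sdhd, had 4468 ± 216 and 4337 ± 252 in FR30 offspring and 4158 ± 39.3 and 4207 ± 60.1 in control offspring. None of the 4 genes had a difference beyond 0.11 in either direction. In complex III, Uqcrc1, a core protein, had 4526 ± 89.0 and 4699 ± 149 in FR30 offspring and 4263 ± 150 and 4261 ± 169 in control offspring, so that its FR30 signals were above its control signals on both diets. Uqcrb, which helps bind ubiquinone, had 11780 ± 452 and 11634 ± 335 in FR30 offspring and 11023 ± 207 and 11561 ± 453 in control offspring. Uqcrfs1 ran the other way, with 8387 ± 175 and 8298 ± 202 in FR30 offspring below 9016 ± 230 and 8578 ± 55.1 in control offspring.

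In the ATP synthase, the peripheral stalk that holds the catalytic head in place was read through Atp5pd, Atp5pf and Atp5po (Atp5h, Atp5j and Atp5o in the file). Atp5pd, its d subunit, had 1891 ± 22.5 and 1970 ± 27.5 in FR30 offspring (HF and standard diet) and 1769 ± 18.4 and 1820 ± 69.5 in control offspring, with differences of 0.12 on HF and 0.14 on standard diet, and both FR30 signals were above both control signals. Atp5pf and Atp5po differed less, by 0.07 and -0.01 on HF diet and 0.024 and 0.058 on standard diet. In the catalytic head, Atp5f1a was lower in FR30 offspring on both diets, Atp5f1b lay within 0.01 in all 4 comparisons, and Atp5f1c, in the central stalk, had its highest signal in control offspring on HF diet. Atp5f1d, also in the central stalk, had 3393 ± 134 and 3522 ± 105 in FR30 offspring and 3310 ± 135 and 3684 ± 151 in control offspring. It was lower on HF diet in both kinds of offspring, as were Atp5mg and Atp5pd. Atp5f1a was at 0.09 in FR30 and 0.05 in control offspring for the diet, and with equal medians at -0.04 in control offspring.

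Other genes of mitochondrial energy metabolism were read from lists beside the members. Of 26 detected assembly factors outside the rule, 16 were higher and 10 lower in FR30 offspring on HF diet, with a median of 0.038, and 15 and 11 on standard diet, with a median of 0.020. Among 16 genes of the citric acid cycle and pyruvate dehydrogenase, 7 were higher and 8 lower on HF diet (median -0.0076), and 7 and 9 on standard diet, with a median of -0.0043. Among regulators of mitochondrial biogenesis, 7 of 17 were higher on HF diet and 12 of 18 on standard diet, with medians of -0.013 and 0.065. For the coactivator gene Ppargc1a the differences were -0.30 on HF diet and -0.38 on standard diet, lower in FR30 offspring. Both were past 1.2-fold, as were 9.43% and 8.87% of all genes. Its signals were dim, with 220 and 221 in FR30 offspring (HF and standard diet) and 237 and 248 in control offspring. Background correction raises the log2 differences of such a probe. Ppargc1b, a related coactivator gene, was at 0.31 on standard diet, with 199 in FR30 and 188 in control offspring, and was not detected in every sample. Among the other regulators, Polg2 was at 0.21 on HF diet, and Gabpa at -0.24 and Tfb2m at 0.21 on standard diet. The factor genes Nrf1 (-0.03 and 0.11) and Tfam (-0.01 and 0.05) differed less than Ppargc1a. Carriers and uncoupling genes had medians of 0.011 and -0.035 over 15 genes, and mitochondrial ribosomal protein genes 0.023 over 60 and 0.033 over 61 genes.

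None of the genes of these 5 lists that were detected in both samples was past 1.5-fold in FR30 against control offspring on either diet. Mrps10, a mitochondrial ribosomal protein gene, was left out on HF diet, with 210 in FR30 and an undetected 147 in control offspring. For HF against standard diet the medians in FR30 and control offspring were 0.011 and 0.042 for assembly factors, -0.020 and 0.016 for the citric acid cycle, 0.0054 and 0.040 for the regulators, 0.027 and -0.018 for carriers and 0.0018 and 0.024 for mitochondrial ribosomal proteins. Genes with cytosolic ribosomal protein symbols (172 on the array, look-alike loci included), which also have bright probes, had medians of 0.031 over 95 genes on HF diet and -0.0048 over 93 on standard diet in FR30 against control offspring, and proteasome genes -0.018 and 0.023 over 37, beside the 0.052 and 0.039 of the members. With 1 sample a group, these differences between lists were not tested.

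**Figure D5:**
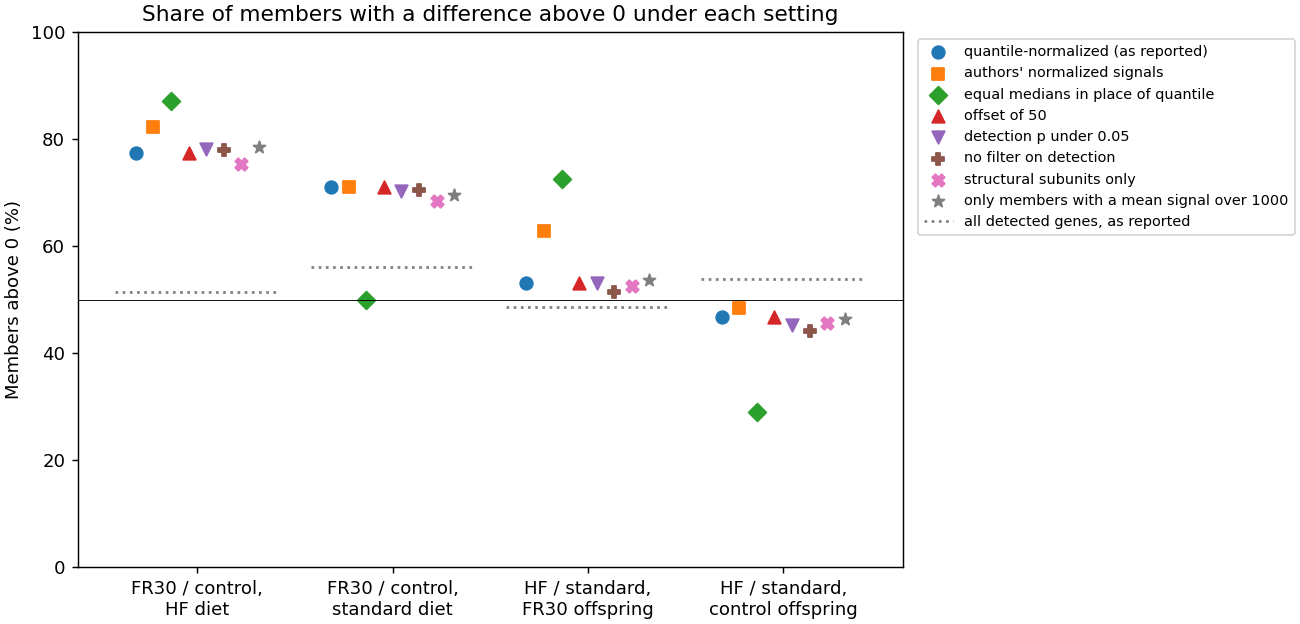
Share of members with a difference above 0 (vertical axis, percent) in the 4 comparisons, 1 marker a setting, with the share of all detected genes as a dotted line. For FR30 against control on HF diet every marker lies between 75.4% and 87.1%, whereas scaling to equal medians gives 50% on standard diet, 72.6% for the HF diet in FR30 offspring and 29.0% in control offspring.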

How the data were processed

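Biotinylated cRNA was made from total RNA, per the labels' protocols, and scans were read in GenomeStudio, as named in the submitters' processing notes. Per probe, the deposited tables hold the authors' average intensity, raw and normalized (the normalization method is not stated in these sources), a detection p-value from the authors and an SD. The deposited value table equals the normalized intensities. From the non-normalized intensities, limma 3.58.1 in R 4.3.3 (neqc, offset 16, quantile) gave log2 values. Each gene was represented by its brightest probe, member probes first. Of the 69 member symbols, 50 were current RefSeq symbols and 19 older ones. Groups were taken from the sample labels. The number of arrays, 1 a group, limits the precision. Pairwise differences were described by size, and prenatal group and diet were also fitted together with limma, a step that was tested on simulated data. Named by rule are the 3 highest and 3 lowest members of each comparison, the brightest of each complex, tissue isoforms and undetected members. Other members, among them Ndufs8, Ndufv2, Ndufa10, Uqcrc1, Atp5pd and Cyc1, were described outside that rule with their values known. The alternatives were the authors' normalized signals, equal medians, another offset, other detection filters, every probe, subunits only, another size and a trended prior. Members and lists were chosen with earlier results of these data known. Plots used matplotlib 3.10.9 (Python 3.11.15).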

Additional observations from a re-analysis of the deposited data

Results flagged for a closer look

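The median diet difference of the 62 detected members lay above 0 in FR30 offspring, at 0.0085, and below 0 in control offspring, at -0.0045. The median over members of the diet difference in FR30 minus that in control offspring was 0.025. It is listed because the medians had opposite signs, and the difference was not tested. Each of these values is well under the SD of the members' differences, 0.067 in FR30 and 0.11 in control offspring. That SD measures the spread among genes, not the error of a median, so it does not show how large the medians are. Scaling to equal medians left their signs opposite and put both further from 0.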

How the results depend on the processing

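Of 118 summary values recomputed under alternatives, 108 kept their direction and stayed close to the reported value. The other 10 were as follows. Scaling to equal medians gave 87.1% of members above 0 and a median of 0.084 for FR30 against control on HF diet, 50% and 0.0022 on standard diet, 72.6% and 0.027 for HF against standard diet in FR30 offspring, and 29.0% and -0.052 in control offspring; the cause was not tested. At 1.2-fold in place of 1.5-fold, 1 member was counted for FR30 against control on HF diet and 2 for HF against standard diet in control offspring. With the authors' normalized signals the shares above 0 were 82.3%, 71.0%, 62.9% and 48.4% in the same order of comparisons. Restricting the members to mean signals over 1000 was chosen after seeing the data and gave 78.6%, 69.6%, 53.6% and 46.4%. No member was called by limma under any alternative, although the prenatal calls over all genes were 1 in the fit as reported, 69 with the authors' signals, 7 with an offset of 50 and 205 with a trended prior, and the diet calls 0, 3, 2 and 5. At an unadjusted p under 0.05 the trended prior held 5 members for prenatal group and 6 for diet, against 14.5% and 7.7% of all genes, and the authors' signals 5 and 3, against 13.9% and 7.21%. No paired analysis was possible because each group held 1 sample. For detected members named by rule, 312 differences were recomputed with the authors' signals, equal medians or an offset of 50. Of these, 37 moved by more than the deposited SDs of both signals combined, 13, 18 and 6 in that order. With the authors' signals Ndufs6 was at 0.11, -0.04, 0.08 and -0.08 and Cox6a2 at -0.04, 0.035, 0.11 and 0.19 in the order of comparisons above. Equal medians turned the sign of 5, 13, 10 and 11 of the 62 members in that order, the authors' signals that of 2, 0, 8 and 2, and the offset that of none. Signal over background limits the values of the 6 dim members.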

Other observations

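A further 15 genes bear a current symbol of the same families but an older name in the file, so the rule did not take them, and 11 were detected in all samples. They were selected after their values were seen. In FR30 against control offspring 9 of the 11 were higher on HF diet and 7 on standard diet, with medians of 0.071 and 0.022, and for HF against standard diet 4 of 11 were higher in FR30 offspring and 2 of 11 in control offspring. Atp5mk (Usmg5 in the file), a small subunit of the ATP synthase membrane part, had the widest values among these genes. It was higher in FR30 than in control offspring by 0.34 on HF diet and lower, at -0.41, on standard diet, and its diet difference was 0.49 in FR30 and -0.26 in control offspring. The complex I assembly factor gene Ndufaf6 was higher in FR30 offspring on both diets, by 0.19 and 0.21, and lower on HF diet in both kinds of offspring, at -0.25 and -0.23. Among assembly factors outside the rule, Cox20, which serves the assembly of complex IV, had the widest diet difference in control offspring, -0.51, against -0.05 in FR30 offspring. Its signals in control offspring were 287 on HF and 354 on standard diet. Ttc19, a factor of complex III, was lower in FR30 offspring on both diets, at -0.30 and -0.17. It had 283 against 317 on HF diet and 296 against 316 on standard diet. Both probes were dim, and background correction raises the log2 differences of dim probes. Of all genes, 7.99% were past 1.2-fold for the diet in control offspring and 9.43% for FR30 against control on HF diet.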
